A study of Rattus norvegicus with 8 samples.

Results

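Cxcr4, Cxcl12 and Ackr3, the genes of a chemokine and its 2 receptors, were followed in alveolar type II (ATII) cells of the rat, the lung's surfactant-making epithelium, with and without a constitutively active mutant of HIF1a. The genes were taken by name, and all 3 were found among the 18166 genes that the array's annotation names singly, each with 1 probe set (17683912 for Cxcr4, 17786463 for Cxcl12 and 17861494 for Ackr3). The wells compared were AdHIF1a, given an adenovirus that carries the mutant, and AdGFP, given an adenovirus with green fluorescent protein, so every well had received virus. ATII cells of 4 male Sprague Dawley rats were used, 1 well of each virus per rat on its own extraction day, so that 8 arrays form 4 pairs. Fresh isolates met virus for 3 h (multiplicity of infection 20, 2% fetal bovine serum), were plated on 80% rat tail collagen and 20% Matrigel with 5% rat serum, and were lysed 24 h later. The rats' age, the promoter and species of the transgene, and the share of cells that took up virus are not stated in the labels.

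CXCL12 is a secreted chemokine that draws cells along its gradient. CXCR4 is its signalling receptor, coupled to inhibitory G proteins, and is known as a driver of migration, among others of epithelial cells during repair; hypoxia-inducible factor is known to activate its gene in several human cell types. ACKR3 binds the same ligand without classical G protein signalling, recruits beta-arrestin and removes CXCL12 from the surroundings. The comparison asks how a HIF1a that stays active in the presence of oxygen alters the transcripts of ligand, receptor and scavenger in cells that repair the alveolar wall. No migration or wound assay is among the data analysed here.

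In the AdHIF1a wells Cxcr4 rose 5.56-fold and Cxcl12 2.35-fold, whereas Ackr3 averaged 0.58 lower in log2 units without passing the threshold, an adjusted p under 0.05. Each difference is that of AdHIF1a over AdGFP wells of the same rats, in log2 units ± the moderated standard error (SE) of a limma fit with the rat as a block, and p-values are adjusted with the Benjamini-Hochberg method over all genes. Of the 3 genes, 2 were called, against 13.4% of all genes tested (5.68% higher and 7.77% lower). The 3 genes were chosen with earlier results of these data known, so their count is no test against these shares. These shares depend on the scaling: with the arrays centred on their medians, 635 genes were called higher and 1324 lower, against 1032 and 1411 on the deposited scale, and the median difference of all genes was -0.09, against -0.005. The shares also depend on brightness: with dim probe sets filtered at the median, 3202 of 11343 genes were called. The direction was the same in 4 of 4 rats for each of the 3 genes. With 4 pairs an exact sign-flip test of 1 gene alone cannot go below p = 0.125, two-sided, and it gave 0.125 for each.

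The stretch around the start of each gene is shown because it is where the short core of the HIF binding motif can be looked up for a gene that rose evenly, one that rose unevenly and one that did not pass the threshold. The sequences are from RefSeq (GRCr8), run from 250 bases before to 50 bases after the annotated start and are written 5′ to 3′ on the gene's strand. They lie at chr13:42634239-42634538 (minus strand) for Cxcr4, chr4:152060531-152060830 (plus strand) for Cxcl12 and chr9:98247104-98247403 (plus strand) for Ackr3. Capitals mark each ACGTG or GCGTG on either strand.
Cxcr4: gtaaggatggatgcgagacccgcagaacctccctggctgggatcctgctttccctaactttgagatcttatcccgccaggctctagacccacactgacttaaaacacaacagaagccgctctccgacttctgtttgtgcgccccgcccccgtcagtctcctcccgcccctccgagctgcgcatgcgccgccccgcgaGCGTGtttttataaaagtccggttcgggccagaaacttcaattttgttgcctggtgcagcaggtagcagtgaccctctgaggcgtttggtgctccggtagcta
Cxcl12: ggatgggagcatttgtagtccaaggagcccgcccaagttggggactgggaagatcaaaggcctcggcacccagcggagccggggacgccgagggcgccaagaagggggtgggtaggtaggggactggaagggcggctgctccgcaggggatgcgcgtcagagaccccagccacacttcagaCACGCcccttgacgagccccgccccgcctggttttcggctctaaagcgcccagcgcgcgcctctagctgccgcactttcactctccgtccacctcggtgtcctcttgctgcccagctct
Ackr3: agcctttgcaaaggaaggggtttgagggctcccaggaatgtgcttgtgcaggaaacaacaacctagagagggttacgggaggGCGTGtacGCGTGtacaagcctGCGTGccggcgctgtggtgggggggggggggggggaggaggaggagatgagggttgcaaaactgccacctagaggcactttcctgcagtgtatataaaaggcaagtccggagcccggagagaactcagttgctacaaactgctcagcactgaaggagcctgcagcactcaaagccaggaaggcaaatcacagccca

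The letters GCGTG occurred 1 time in the Cxcr4 window, beginning 53 bases before the start, and 1 time on the opposite strand in the Cxcl12 window, beginning 69 bases before it. The Ackr3 window held 3 of them, beginning 168, 160 and 146 bases before the start. ACGTG was in none of the 3 windows. Of the 14505 promoters in the RefSeq table that belong to genes tested here, 39.4% held GCGTG, 21.8% held ACGTG and 50.7% held either, and 11.5% held at least 3 of these cores together, so a match is common. TATAAA, the core of a TATA box, began 44 bases before the start in Cxcr4 and 54 bases before it in Ackr3, on the gene's own strand, and was not in the Cxcl12 window; 11.9% of the promoters held it on either strand. These are matches of letters, not measured binding.

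The receptor gene Cxcr4 had log2 signals of 8.92, 8.14, 8.09 and 8.16 in the AdHIF1a wells of rats 1 to 4, against 6.45, 5.69, 5.54 and 5.73 in their AdGFP wells. The groups did not overlap, and the lowest AdHIF1a well stood 1.64 above the highest AdGFP well; groups without overlap were found for 22.5% of all genes. Rat 1 had the highest signal under either virus. The means were 8.33 ± 0.40 in AdHIF1a wells and 5.85 ± 0.41 in AdGFP wells (SD, n = 4 each). The difference was 2.48 ± 0.08, with a 95% interval of 2.28 to 2.67, or a fold of 5.56 (4.84 to 6.39), and an adjusted p = 0.000308 in limma.

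**Figure D1:**
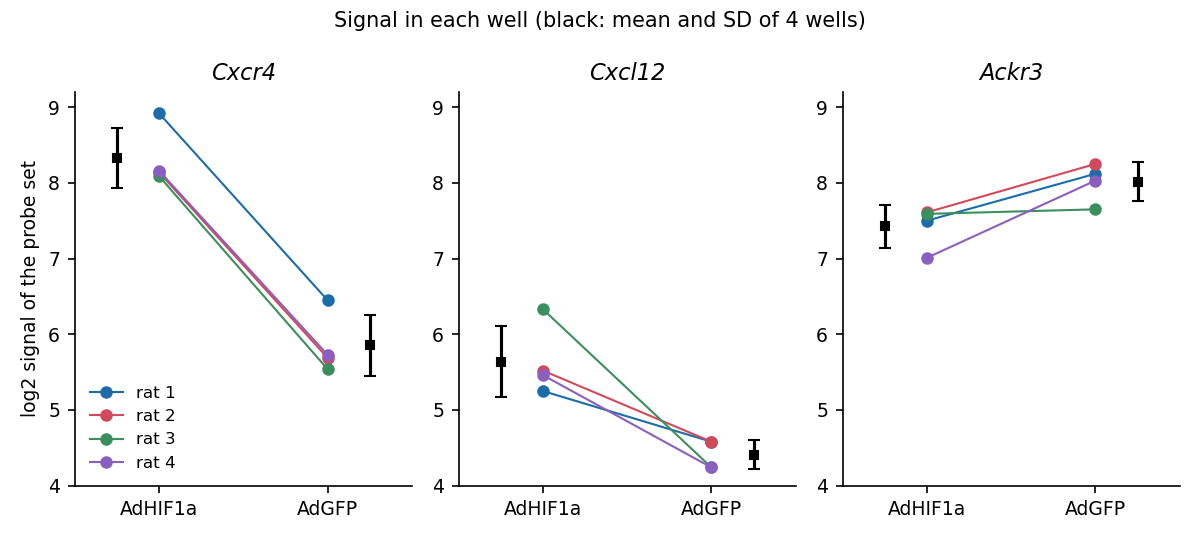
Log2 signal of the probe sets of Cxcr4, Cxcl12 and Ackr3 (vertical axis) in the AdHIF1a and AdGFP wells of 4 rats; lines join the wells of 1 rat and black squares with bars give the mean and SD of 4 wells. The 4 Cxcr4 lines run nearly parallel, the Cxcl12 lines do not, and the Ackr3 line of rat 3 is almost flat (-0.06).

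The increase of Cxcr4 was nearly the same in every rat. Within rats 1 to 4 it came to 2.47, 2.45, 2.55 and 2.43, a range of 0.12, while the signals themselves spread over 0.83 among AdHIF1a wells and 0.91 among AdGFP wells. Among the 304 genes called at least 2-fold higher, the median range over the rats was 0.62, and 1 other gene, Tppp, had a range no wider than that of Cxcr4. Tppp, which encodes a tubulin-binding protein, was picked out after its values were seen. Cxcr4 was 43rd of the 18166 genes by size of increase and 11th by p-value.

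Cxcl12, the ligand gene, had log2 signals of 5.25, 5.52, 6.33 and 5.46 in AdHIF1a wells, against 4.58, 4.58, 4.24 and 4.24 in AdGFP wells of rats 1 to 4. The AdHIF1a well of rat 3 was the highest by 0.81, and the groups did not overlap, with 0.67 between the nearest wells. All 4 AdGFP signals lay below the medians of their arrays (5.00 to 5.13) and the AdHIF1a signals above theirs (5.02 to 5.20), and with no detection calls its fold is a rough size only. The means were 5.64 ± 0.47 and 4.41 ± 0.20 (SD, n = 4 each) in AdHIF1a and AdGFP wells. The difference was 1.23 ± 0.24 (95% interval 0.64 to 1.82), or 2.35-fold (1.55 to 3.54), with a limma adjusted p = 0.0278.

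Unlike the receptor, the ligand rose unevenly, by 0.67, 0.94, 2.09 and 1.22 in rats 1 to 4, or from 1.59-fold in rat 1 to 4.26-fold in rat 3. Its call was lost without rat 2 (1.33, limma adjusted p = 0.0928) or rat 4 (1.23, limma adjusted p = 0.120). It held without rat 3 (0.94), the rat with the largest increase. Of all genes, 215 had a larger increase.

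Ackr3, the scavenger receptor gene, gave 7.50, 7.61, 7.59 and 7.01 in AdHIF1a wells, against 8.12, 8.25, 7.65 and 8.03 in AdGFP wells of rats 1 to 4. The groups were parted by only 0.04, and the within-rat differences were -0.62, -0.64, -0.06 and -1.02, so that rat 3 hardly differed. The means were 7.43 ± 0.28 and 8.01 ± 0.26 (SD, n = 4 each) in AdHIF1a and AdGFP wells. The difference was -0.58 ± 0.16 (95% interval -0.99 to -0.18), with a limma adjusted p = 0.0775, which did not pass. It passed with the rat as a random block (0.0416), after dim probe sets were filtered at the median (0.0494) and with a variance prior taken from the named genes alone (0.0314), the fit that was run first. Its direction was negative in every fit run.

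**Figure D2:**
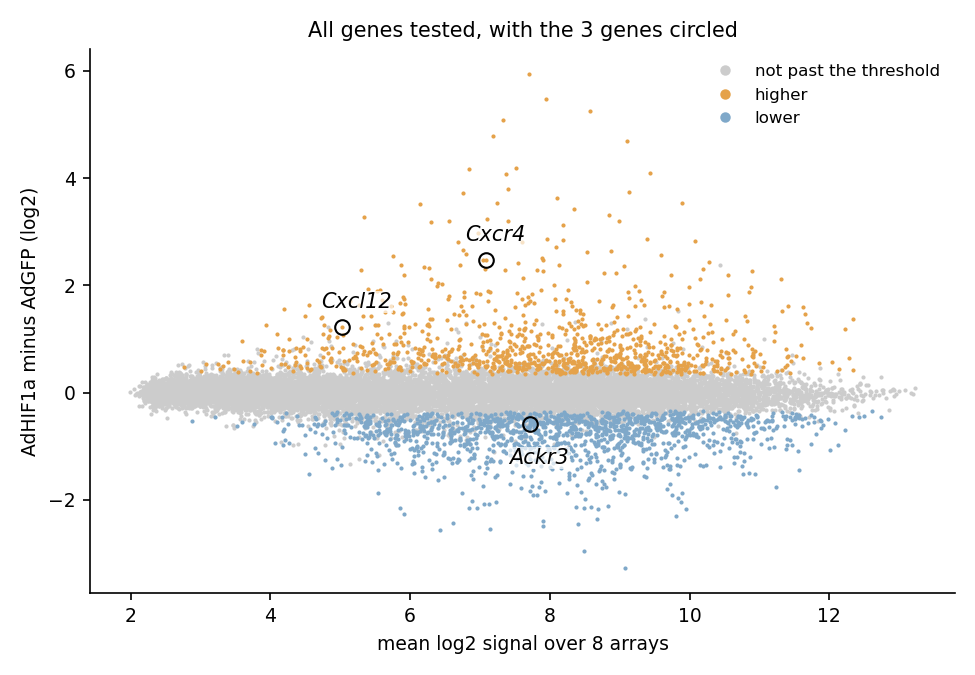
Difference between AdHIF1a and AdGFP wells (log2, vertical axis) against the mean log2 signal over 8 arrays (horizontal axis) for each of 18166 genes, coloured by call, with Cxcr4, Cxcl12 and Ackr3 circled. Cxcr4 (2.48) stands above the bulk of called genes, Cxcl12 (1.23) lies among dim genes and Ackr3 (-0.58) at the edge of the genes not called.

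Rat 3 had the largest increase of Cxcl12 and the Ackr3 difference nearest to 0, while its Cxcr4 increase of 2.55 was only 0.08 above the next one. With 4 rats no relation between the genes was computed. Across the fits tried, the Cxcr4 difference stayed between 2.39 and 2.49 and its limma adjusted p at or below 0.00786. The Cxcl12 difference lay between 0.94 and 1.42, and that of Ackr3 between -0.76 and -0.44.

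**Figure D3:**
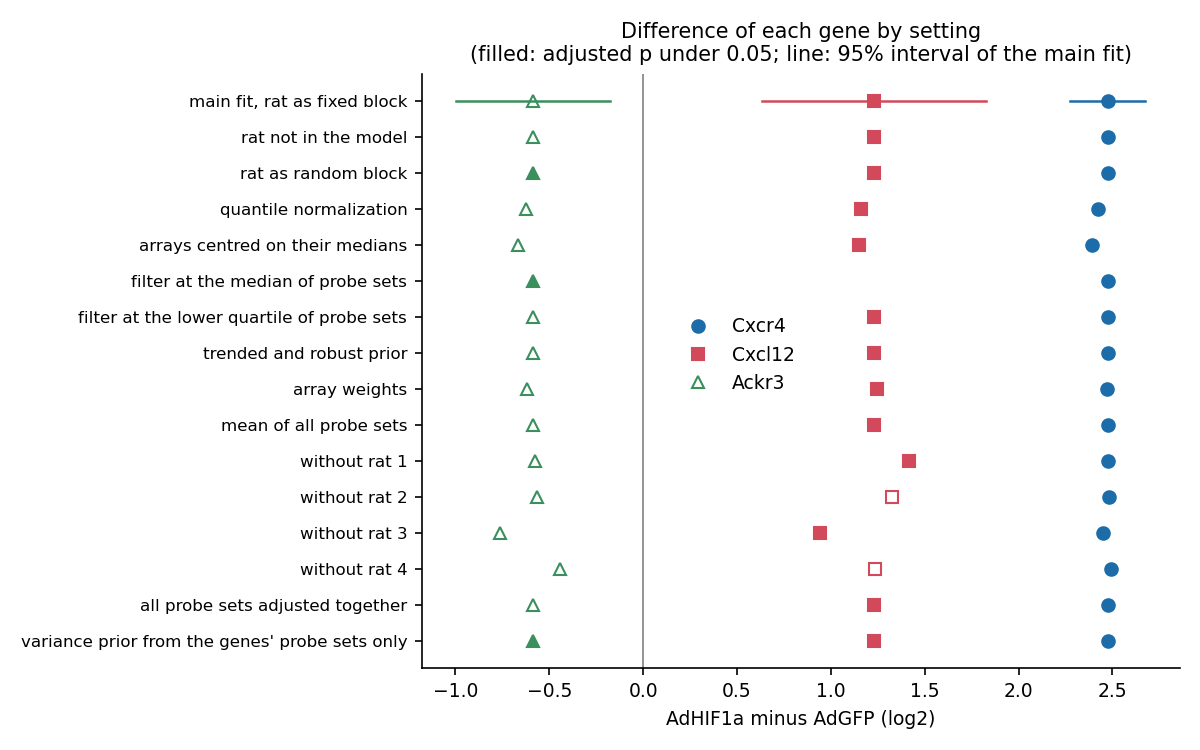
Difference between AdHIF1a and AdGFP wells (log2, horizontal axis) for Cxcr4, Cxcl12 and Ackr3 under the main fit and each alternative (rows); filled symbols passed an adjusted p under 0.05 and lines are the 95% intervals of the main fit. Cxcr4 was filled in every row, Cxcl12 was open without rat 2 or rat 4, and Ackr3 was filled in 3 rows.

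Other ligands of these receptors and proteins that hold or cut CXCL12 changed in both directions. Of 10 measured genes of this kind besides Cxcl12, 3 rose and 3 fell, against 5.68% and 7.77% of all genes, with a median difference of 0.08, against -0.005 over all genes. Adm, whose peptide adrenomedullin is taken up by ACKR3 in mouse and human, had log2 signals of 11.57, 11.49, 11.22 and 11.63 in AdHIF1a wells, against 8.03, 6.87, 7.56 and 7.09 in AdGFP wells of rats 1 to 4. It rose by 4.09 ± 0.22 (limma adjusted p = 0.00120), and the groups were far apart.

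Mif, a cytokine that also binds CXCR4 and ACKR3, rose by 0.58 ± 0.10 (limma adjusted p = 0.0214). Cxcl11, a chemokine shared by CXCR3 and ACKR3 and named after its values were seen, rose by 1.82 ± 0.38 (limma adjusted p = 0.0354). Its increase was uneven, from 0.82 in rat 3 to 2.82 in rat 2. The spread lay in the AdGFP wells, with signals of 10.72, 8.59, 10.51 and 8.75 in rats 1 to 4, against 11.32 to 11.77 in AdHIF1a wells. Ndst1, an enzyme that sulfates the heparan sulfate to which CXCL12 sticks, fell by 1.34 ± 0.17 (adjusted p = 0.00991 in limma). It gave 9.78, 9.47, 9.81 and 9.21 in AdHIF1a wells, against 10.79, 11.10, 10.76 and 11.00 in AdGFP wells. Dpp4, the surface peptidase that trims and inactivates CXCL12, fell by 0.62 ± 0.11 (limma adjusted p = 0.0220). Sdc1, a heparan sulfate carrier named after its values were seen, fell by 0.48 ± 0.09 (adjusted p = 0.0258 in limma). The calls of Mif, Dpp4, Cxcl11 and Sdc1 were lost without rat 2, 3 or 4 and that of Cxcl11 also without rat 1 (adjusted p from 0.0529 to 0.148), and that of Ndst1 without rat 2 (0.0579).

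Among the other receptors that share these ligands, 3 of 4 fell and 0 rose, against 7.77% of all genes lower. Calcrl, the adrenomedullin receptor, fell by 0.61 ± 0.09 and its partner Ramp2 by 0.73 ± 0.17, with limma adjusted p = 0.0154 and 0.0493. The groups of Ramp2 overlapped. Cxcr3, the other receptor of CXCL11, fell by 0.81 ± 0.17 (limma adjusted p = 0.0331) to a mean of 5.54 in AdHIF1a wells, against 6.35 in AdGFP wells. The calls of Calcrl without rat 2, 3 or 4 and of Cxcr3 without rat 1, 2 or 4 were lost (adjusted p from 0.0579 to 0.142), and that of Ramp2 without any 1 of the rats (0.0615 to 0.142).

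Of 19 measured genes that couple and retire the receptors, 1 was higher and 1 lower (median 0.01), or 10.5% called, against 13.4% of all genes. Of the 19, 0 lay below the array median on all 8 arrays, so a share that includes dim genes is an unlike yardstick. Arrb1, which encodes beta-arrestin 1, the adaptor that both receptors recruit, had signals of 10.05, 9.97, 9.89 and 9.96 in AdHIF1a wells, against 9.28, 9.27, 9.04 and 9.42 in AdGFP wells of rats 1 to 4. It rose by 0.72 ± 0.09 (limma adjusted p = 0.00943), with no overlap, and was not called without rat 2 (0.0617). Gng5, a G protein gamma subunit, fell by 0.41 ± 0.10 with overlapping groups (limma adjusted p = 0.0482), and its call was lost without the rat as a block (0.154) or without any 1 of the rats (0.0873 to 0.174).

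Of 33 measured kinase and migration effectors, 3 rose and 2 fell, against 5.68% and 7.77% of all genes, and their median was -0.05. Map2k1, the kinase MEK1 that activates ERK, had signals of 11.82, 11.79, 11.68 and 11.85 in AdHIF1a wells, against 10.93, 10.94, 10.94 and 11.09 in AdGFP wells. It rose by 0.81 ± 0.08 (limma adjusted p = 0.00526) with little spread in either group. The tyrosine kinase gene Jak2 and the adaptor gene Crkl rose by 0.51 ± 0.09 and 0.44 ± 0.09, and Prkcz, an atypical protein kinase C, fell by 0.69 ± 0.14 (limma adjusted p = 0.0243, 0.0275 and 0.0309). The focal adhesion adaptor Pxn, named after its values were seen, fell by 0.45 ± 0.09. Jak2 and Crkl were not called after median centring (0.0782 and 0.0962). Jak2, Crkl, Prkcz and Pxn were not called without rat 2, 3 or 4, nor Jak2 and Pxn without rat 1 (0.0597 to 0.147). Over the pathway lists together 16 of 66 measured genes (24.2%) were called, against 13.4% of all genes. Of the 66, 7 were higher and 9 lower, against 5.68% and 7.77% of all genes. These lists held few dim genes, as 4 of the 66 lay below the array median on all 8 arrays. With dim probe sets filtered at the median, 20 of 61 pathway genes were called, against 3202 of 11343 genes in all. Without rat 2, 3 and 4 the pathway calls were 2, 5 and 4, and the calls over all genes 561, 1117 and 625.

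**Figure D4:**
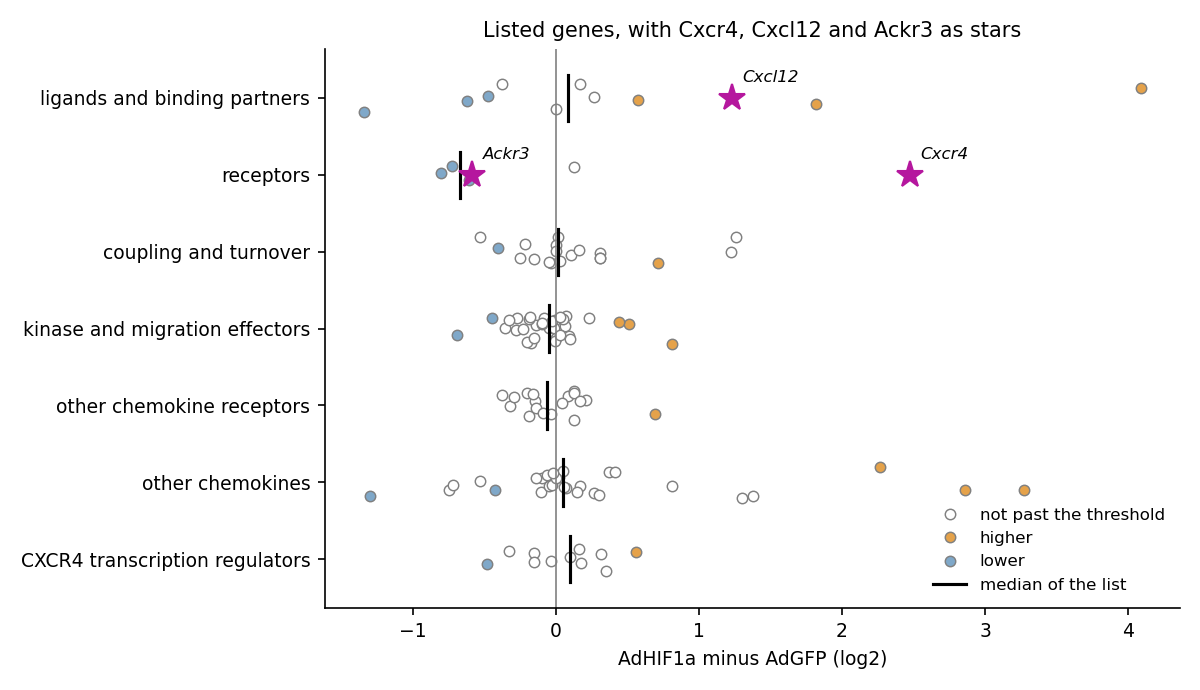
Difference between AdHIF1a and AdGFP wells (log2, horizontal axis) of each measured gene in 7 lists (rows), with called genes coloured, the list median as a bar and Cxcr4, Cxcl12 and Ackr3 as stars. List medians lie near 0 except for the receptors (-0.67), and Cxcr4 (2.48) is set far to the right of the other receptor genes.

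Of 18 other chemokine receptor genes, 1 rose and 0 fell, with a median of -0.06, and the 5.56% higher was close to the 5.68% of all genes. Ccrl2, an atypical receptor that binds chemerin, rose by 0.69 ± 0.14 with overlapping groups (limma adjusted p = 0.0334), and was not called without rat 1, 2 or 4 (0.0786 to 0.144). In this list 10 of the 18 genes lay below the array median on all 8 arrays. In the 2 receptor lists no measured gene but Cxcr4 had a larger increase than Ccrl2.

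Of 29 other chemokine genes, 3 rose (10.3%) and 2 fell (6.90%), against 5.68% and 7.77% of all genes (median 0.05). Cxcl13, a B cell attractant, had signals of 6.86, 7.22, 6.55 and 7.29 in AdHIF1a wells, against 3.67, 3.50, 4.03 and 3.63 in AdGFP wells of rats 1 to 4. It rose by 3.27 ± 0.22 (limma adjusted p = 0.00195) over AdGFP signals below the array medians, where a fold is a rough size only. Ccl5 and Cxcl10, chemokines of the interferon and antiviral response, rose by 2.86 ± 0.47 and 2.27 ± 0.46 (limma adjusted p = 0.0186 and 0.0316). Both rose unevenly, Ccl5 by 1.42 in rat 3 to 4.06 in rat 2 and Cxcl10 by 0.89 in rat 1 to 3.32 in rat 2. Their AdGFP signals spread widely, from 7.05 to 8.93 for Ccl5 and from 8.80 to 11.06 for Cxcl10. Like those of Cxcl11, these AdGFP signals were lower in rats 2 and 4 than in rats 1 and 3, so the increases of the 3 genes share a pattern. The calls of Ccl5 and Cxcl10 were lost without rat 2 or 4 and that of Cxcl10 also without rat 3 (0.0724 to 0.128). Cxcl17, a mucosal chemokine, fell by 1.30 ± 0.11 (limma adjusted p = 0.00385), from -1.17 in rats 1 and 2 to -1.64 in rat 4. Pf4, a platelet chemokine named after its values were seen, fell by 0.42 ± 0.09 (limma adjusted p = 0.0353), a call lost without any 1 of the rats (0.0576 to 0.167) and without the rat as a block (0.0542). It was also lost after median centring (0.0568), with a trended and robust prior (0.0541) and with all probe sets adjusted together (0.0514). Over both chemokine lists 6 of 47 genes (12.8%) were called, near the 13.4% of all genes, and 2 without rat 2 or without rat 4.

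Of 11 measured genes known to regulate CXCR4 transcription, 1 rose and 1 fell (9.09% each), near the 5.68% and 7.77% of all genes. The rat probe set of Hif1a gave 10.64, 10.69, 10.77 and 10.48 in AdHIF1a wells, against 11.10, 11.05, 11.32 and 11.03 in AdGFP wells, and fell by 0.48 ± 0.08 (limma adjusted p = 0.0217; 0.0870 to 0.113 without rat 2, 3 or 4). It does not check the labels, because the transgene's sequence is not given. Vhl, which marks HIF for destruction, rose by 0.56 ± 0.13 (limma adjusted p = 0.0418; 0.105 after median centring and 0.0955 to 0.177 without rat 1, 2 or 4). All 11 measured genes of a short list of known HIF targets rose, by 0.47 to 3.21, among them Vegfa (1.52 ± 0.15), Slc2a1 (1.19 ± 0.09), Pdk1 (1.98 ± 0.09) and Egln3 (2.12 ± 0.17), against 5.68% of all genes.

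For each of the 3 genes the nearest genes were sought by the root mean square gap between their 4 within-rat differences. Nearest to Cxcr4 were Th (gap 0.129), the tyrosine hydroxylase of catecholamine synthesis, Ak4 (0.166), a mitochondrial adenylate kinase, Prr15 (0.189) and the cytochrome P450 gene Cyp4f18 (0.203). They rose by 2.42 ± 0.10, 2.44 ± 0.11, 2.48 ± 0.11 and 2.39 ± 0.10. Nearest to Cxcl12 were Ighl13 (0.226), Dlg5l16 (0.274), 4930488N24Rikl (0.279) and Dlg5l14 (0.286), of which Dlg5l16 and Dlg5l14 have near-identical copies that could share probes. The differences of 4930488N24Rikl (0.43, 1.12, 2.30 and 1.64 in rats 1 to 4) were almost those of Dlg5l14 (0.39, 1.12, 2.27 and 1.65). Whether their probe sets read separate transcripts was not tested. Dlg5l16 was not called, nor was 4930488N24Rikl with the mean of all probe sets (limma adjusted p = 0.0549 and 0.0532). Nearest to Ackr3 were the cation channel gene Trpv4 (0.0660), Kctd4 (0.0826), the actin-binding caldesmon gene Cald1 (0.0851) and Dusp6 (0.104), a phosphatase of ERK, and like Ackr3 none of the 4 was called. Within a gap of 0.2 lay 3 genes for Cxcr4, 0 for Cxcl12 and 67 for Ackr3. The likeness is over 4 rats and was read from the same differences, so it is a description.

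CXCR4 is abundant on leukocytes and CXCL12 is made by stromal cells, and in wells of mixed cells more cells of a type cannot be told apart from more RNA per cell. All 15 measured ATII markers lay above the array median on every array, with list means of 10.22 to 10.58 in AdHIF1a wells and 10.58 to 10.87 in AdGFP wells. Of these, 2 rose (13.3%) and 7 fell (46.7%), against 5.68% and 7.77% of all genes, the median difference was -0.41, and the list mean was lower under AdHIF1a in 4 of 4 rats. Since none of these markers was dim, shares that include dim genes are an unlike yardstick. With dim probe sets filtered at the median, 1343 of 11343 genes were called higher and 1859 lower. The genes that fell, all named after their values were seen, were Napsa (-1.52 ± 0.18), Muc1 (-1.31 ± 0.11), Lpcat1 (-0.80), Lamp3 (-0.78), Cdh1 (-0.53), Nkx2-1 (-0.44) and Epcam (-0.41). The surfactant protein genes Sftpb and, named after its values were seen, Sftpa1 rose by 0.69 ± 0.11 and 0.88 ± 0.10, while Sftpc at 0.28 ± 0.08 was not called (limma adjusted p = 0.0168, 0.00661 and 0.0840). The calls of Muc1 and Sftpa1 held without any 1 of the rats, that of Napsa was lost without rat 2 (0.0509), and those of the other 5 that fell were each lost without at least rats 2, 3 and 4 in turn (0.0509 to 0.171). Epcam was also not called after median centring (0.0594). Sftpb was not called without the rat as a block (0.128) or without rat 2, 3 or 4 (0.0736 to 0.0895).

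Of 21 leukocyte markers 0 rose and 1 fell (4.76%), against 5.68% and 7.77% of all genes (S100a9, named after its values were seen, with -0.59 ± 0.10 and a call lost without rat 2, 3 or 4, at 0.0686 to 0.103), and list means ran from 6.34 to 7.14 in AdHIF1a wells and from 6.82 to 7.23 in AdGFP wells. The S100a9 signals, 3.44 to 3.52 in AdHIF1a wells and 3.92 to 4.30 in AdGFP wells, lay below the array medians, where a difference is a rough size only. Of the 21 markers, 5 lay below the array median on all 8 arrays. The pan-leukocyte gene Ptprc averaged 6.75 ± 0.51 in AdHIF1a wells and 7.01 ± 0.41 in AdGFP wells (SD, n = 4 each), and Cd68 of macrophages 8.93 ± 0.83 and 8.90 ± 0.38. Leukocyte transcripts were thus present, and the list mean differed by -0.48 in rat 1 and by -0.09 to -0.05 in rats 2 to 4. Cxcr4 was 5.39-fold to 5.86-fold higher over the 4 rats. The list pools several leukocyte types, and which cells carried the Cxcr4 transcripts was not tested.

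Mesenchymal markers, 13 in all, included 1 that fell (Tagln at -2.35 ± 0.23, named after its values were seen) and 0 that rose, 7.69% and 0% against 7.77% and 5.68% of all genes, with means of 5.30 to 5.48 in AdHIF1a wells and 5.55 to 5.72 in AdGFP wells. Of the 13, 5 lay below the array median on all 8 arrays. Pdgfra of fibroblasts averaged 3.74 and 3.91, and Col1a1 5.72 and 5.86, in AdHIF1a and AdGFP wells. Of 10 endothelial markers, 6 lay below the array median on all 8 arrays, and the list had means of 5.13 to 5.22 in AdHIF1a wells and 5.19 to 5.34 in AdGFP wells. Of these genes 1 fell and 0 rose, 10% against 7.77% of all genes lower, namely Esam at -0.93 ± 0.09 and named after its values were seen. Esam averaged 8.75 in AdHIF1a wells and 9.68 in AdGFP wells, and Tagln 7.50 and 9.86, far above the means of their lists. Which cells these 2 transcripts came from was not tested. Cdh5 averaged 5.41 in AdHIF1a wells and 5.18 in AdGFP wells. The mesenchymal list mean differed by -0.31 to -0.15 within the 4 rats, but by only -0.10 to -0.01 without Tagln.

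**Figure D5:**
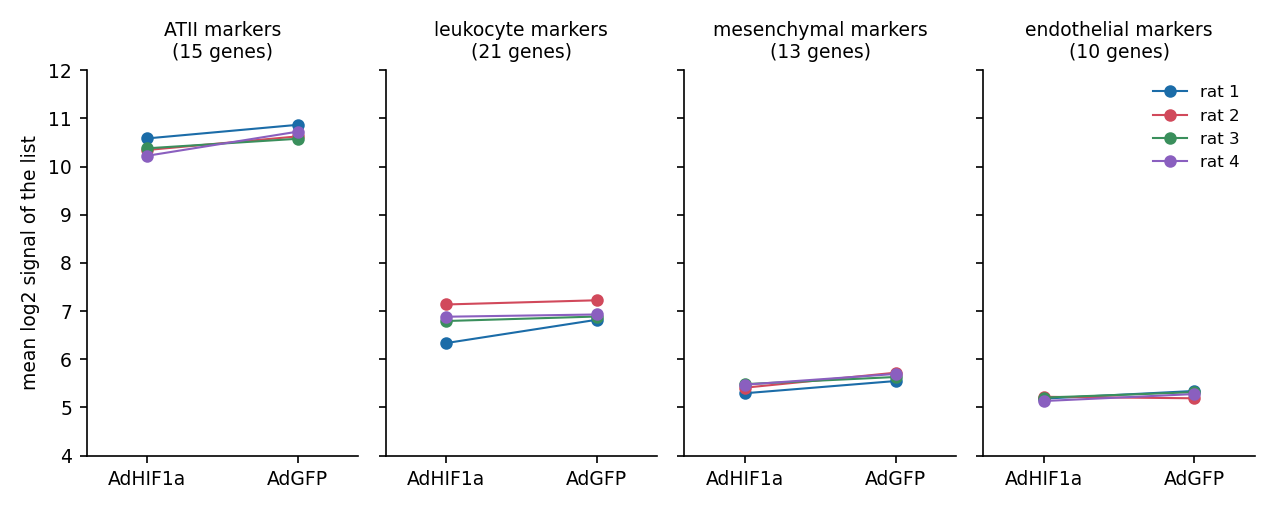
Mean log2 signal of 4 marker lists (vertical axis) in the AdHIF1a and AdGFP wells of 4 rats, with lines joining the wells of 1 rat. ATII markers lie between 10.22 and 10.87, leukocyte markers between 6.34 and 7.23, and mesenchymal and endothelial markers between 5.13 and 5.72 in all wells.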

How the data were processed

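The authors deposited log2 signals per probe set, to 2 decimals, for 36685 probe sets on 8 arrays. Affymetrix Expression Console is the tool in the submitters' processing notes, and neither algorithm nor build is given in the sources used here. That the scale is log2 follows from the values (1.42 to 13.57). Array medians ran from 5.00 to 5.20. In rats 1 to 4 they were 5.02, 5.19, 5.16 and 5.20 in AdHIF1a wells, against 5.13, 5.00, 5.07 and 5.04 in AdGFP wells. As the scaling between arrays is not known, a change of all transcripts together cannot be judged. The number of arrays limits the precision.

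The brightest probe set with 1 symbol stood for each gene, which left 18166 genes. limma 3.58.1 in R 4.3.3 (lmFit, eBayes) was fitted to all probe sets, named or not, in a model with virus and rat, and p-values were adjusted over the genes. limma was run first on the probe sets of the named genes only (prior degrees of freedom 4.18, against 2.58). The fit to all probe sets, which matches earlier processing of these data, was taken as the main one after the results of both were known, and the other is given as an alternative. The choice decides the call of Ackr3 (adjusted p = 0.0775 in the main fit and 0.0314 in the other). The pairing comes from the series' design. Across genes, wells of 1 rat deviated together from the means of their viruses (r from 0.18 to 0.26), and wells of different rats less so (-0.22 to 0.08). Such deviations sum to 0 over the 4 wells of a virus, so positive values within rats force lower ones between rats. With the rat as a random block, limma put the correlation of wells of 1 rat at only 0.08. The fit was tested on simulated data with independent noise for each gene and effects in few genes. The real data differ in both, so the test does not give the rate of false calls here.

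The 3 genes and 12 gene lists (219 entries, 197 measured) were chosen with earlier results of these data known. Named were, per pathway, chemokine or regulator list, the 4 called genes with the smallest adjusted p and the one with the largest difference, besides Hif1a, 4 HIF targets, the 4 nearest genes of each member and a few markers. Alternatives changed the block, the normalization, the filter on dim probe sets, the variance prior, array weights, the probe sets of a gene and the adjustment, or left out each rat.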

Additional observations from a re-analysis of the deposited data

Results flagged for a closer look

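Among the 46 named genes, 138 groups of 4 values were examined and 12 had a lowest or highest value far from the other 3 (a wide gap to the nearest, relative to the range, by Dixon's criterion); chance marks about 1 in 20. The AdHIF1a signal of Cxcr4 was highest in rat 1 (8.92, next 8.16), and this rat's AdGFP well was also the highest of its group (6.45), so that the within-rat difference was not set apart. In AdHIF1a wells, Cxcr3 was lowest in rat 4 (5.33, next 5.60), Ccl5 in rat 3 (10.02, next 11.08) and Col1a1 in rat 4 (5.50, next 5.78). In AdGFP wells, Map2k1 was highest in rat 4 (11.09), Ccrl2 in rat 1 (5.24), Dlg5l16 in rat 3 (6.15) and Cd68 in rat 2 (9.47). Within-rat differences stood apart for Cxcl17 in rat 4 (-1.64, next -1.22), Ighl13 in rat 3 (1.96, next 0.90), Cd68 in rat 1 (-0.91, next 0.30) and Pdgfra in rat 1 (0.06, next -0.24). Their causes were not tested.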

How the results depend on the processing

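Cxcr4 kept its direction and its call in 15 of 15 alternatives, with differences of 2.45 to 2.49 over the fits that leave out 1 rat. Cxcl12 kept its direction in all 14 alternatives that tested it and its call in 12; the fits without 1 rat gave 0.94 to 1.42, and the call was lost without rat 2 or 4. The filter at the median removed Cxcl12. Ackr3 kept its direction in 15 of 15 alternatives (-0.76 to -0.44 without 1 rat) and its difference of -0.58 passed with the rat as a random block, under the median filter and with the prior from the genes' probe sets only. That prior was used in the fit run first, and the main fit was chosen over it with both results seen. It called 3674 genes on the array, against 2443 in the main fit, 22 pathway genes, against 16, and 12 other chemokine genes, against 6. Without 1 rat the counts ran from 561 to 2006 on the array, from 2 to 11 for pathway genes and from 2 to 4 for other chemokine genes; fewer arrays enter these fits. Without the replicate block (rat) the differences of the 3 genes were the same, 2951 genes were called and no call of the 3 changed (adjusted p = 0.0514 for Ackr3). With all probe sets adjusted together, Gng5, Pxn, Cxcl11, Vhl and Epcam were not called either (limma adjusted p from 0.0507 to 0.0684). Ramp2 and Pxn were also not called after quantile normalization (0.0503 and 0.0528), nor Gng5 and Sftpb with the rat as a random block (0.120 and 0.0968). Dim probe sets such as that of Cxcl12 in AdGFP wells limit the folds.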
